A study of Homo sapiens with 20 samples.

Results

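Gene expression was compared between the 4 intrahepatic lines of a panel of 20 human biliary tract cancer cell lines and the 15 lines of the other biliary sites. The 4 lines, chosen by the subtype label Intrahepatic, are HuCCT1, HuH28, SNU-1079 and TKKK. The comparison lines were 7 of gallbladder, 5 of extrahepatic duct and 3 of ampullary cancer, the ampulla being the opening of the bile duct into the gut. The line OZ carries both bile duct labels and was left out of both groups, although its values are given where they bear on a gene.

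All are established lines kept in the same medium, DMEM with fetal bovine serum, with no treatment named, and each stands for 1 tumour. HuCCT1 came from ascites and is labelled metastatic, while HuH28, SNU-1079 and TKKK came from primary tumours. Of the 15 comparison lines, 10 are labelled primary and 5 metastatic. HuCCT1 and TKKK were supplied by RIKEN, HuH28 by HSRRB and SNU-1079 by KCLB, so the repository is not the same for the 4 lines. Each line was sequenced as 1 library of poly(A)-selected RNA, so that the line is the replicate and every p value measures the spread between lines.

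The intrahepatic ducts are the branches of the biliary tree inside the liver. They are lined by cholangiocytes, which modify bile and share a progenitor with hepatocytes, whereas the gallbladder, the extrahepatic duct and the ampulla arise from a more caudal part of the same foregut outgrowth. Cancers of the small intrahepatic ducts are known for often lacking mucin and for expressing the neural cadherin CDH2 and the adhesion molecule NCAM1, while those of large ducts resemble extrahepatic tumours. A cell line is grown without the stroma of the tumour.

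The intrahepatic libraries held 11.49 to 14.25 M counts (M for mega) and those of all lines 10.47 to 15.41 M. Levels are counts per M counts (CPM) after TMM scaling, which corrects library totals for differences in composition. Total counts, TMM factor, the number of genes at 1 CPM or more and the share of counts in the 10 highest genes did not differ between intrahepatic and other lines beyond the spread (exact permutation tests over 3876 splits, two-sided, p = 0.541, 0.186, 0.531 and 0.270; each 0.541 after adjustment over the 4 tests; 0.000258 is the smallest p possible). HuH28 stood apart from the other 3 in composition, with 6.2% of its counts in its 10 highest genes against 3.39% to 3.77%, and its scaling factor of 0.813 was the smallest of the 20 lines.

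The label of a bile duct carcinoma was checked against epithelial and biliary markers. KRT19, a keratin of bile duct cells, was at 1950 CPM in HuCCT1, 1.05 in HuH28, 1010 in SNU-1079 and 1270 in TKKK, and from 147 to 7000 CPM in the other lines with a median of 1530. EPCAM, an epithelial adhesion molecule, was at 528, 0.262, 162 and 909 CPM in the same order. HuH28 thus lacked both at any level seen in the other 3 lines, although it kept 60.5 CPM of KRT7, another biliary keratin. E-cadherin (CDH1) was at 323 CPM in HuCCT1 and 902 in TKKK but at 4.97 in HuH28 and 1.78 in SNU-1079. HuCCT1 and TKKK therefore carried KRT19, EPCAM and E-cadherin, SNU-1079 carried KRT19 and EPCAM with little E-cadherin, and HuH28 carried little of the 3. Results that rest on HuH28 are given with and without it.

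The first question was which transcripts set intrahepatic lines apart as a group. With edgeR's quasi-likelihood test, which compares the 4 lines with the unweighted mean of the other 3 sites, 0 of 16615 genes passed a Benjamini-Hochberg adjusted p of 0.05 (0% called, smallest adjusted p 0.0836). COL5A2, BAAT and THBS2 were among the genes at that smallest value. COL5A2 was at 107, 1500, 7.9 and 0.842 CPM in HuCCT1, HuH28, SNU-1079 and TKKK. Its log2 difference was 7.4 (SE 1.17), and 4.02 (SE 0.9) without HuH28. BAAT had 6.62 (SE 1.11), and THBS2 had 9.22 (SE 1.61) but 0.99 (SE 1.02) without HuH28. At an unadjusted p under 0.05 there were 1574 genes (9.47%), of which 1248 were higher (7.51%) and 326 lower (1.96%) in intrahepatic lines. Without HuH28, 1 of 16455 genes passed (0.00608%), the bile acid enzyme BAAT, and 934 were at an unadjusted p under 0.05 (5.68%), with 708 higher (4.3%) and 226 lower (1.37%). On counts simulated with this spread, a gene shifted by 1 log2 unit was recovered in 4% of cases. A gene shifted by 4 log2 units was recovered in 78% with HuH28 and in 72% without it. Genes of low mean level were not shifted, so these rates do not describe them.

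Higher genes outnumbered lower ones with HuH28, 1248 to 326, and without it, 708 to 226. HuH28 had the highest level of the 4 lines in 648 of the 1248 higher genes, which is 51.9%, against 27.5% of all genes fitted. TKKK was highest in 282, SNU-1079 in 250 and HuCCT1 in 68. In 391 of the 1248 (31.3%) all 4 lines lay above the median of the other 15, against 8.61% of all genes. Among the lower genes, all 4 lines lay below that median in 287 of 326 (88%), against 8.16% of all genes. The same fits chose these genes, so the shares are a description. Of the 1248 higher genes, 566 (45.4%) and of the 326 lower genes 140 (42.9%) were at an unadjusted p under 0.05 in the same direction without HuH28.

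Only 3 of the 16615 genes (0.0181%) were higher in all 4 intrahepatic lines than in every other line, with at least 1 CPM in each of the 4. They were FAT3, PCED1A and ARID5A. FAT3 encodes a giant protocadherin that shapes neurons and their contacts in the retina. It was at 4.61 CPM in HuCCT1, 33.7 in HuH28, 5.35 in SNU-1079 and 10.3 in TKKK. Among the other 15 lines it was at 0 counts in 9, and its highest level was 0.809 CPM, in G415, so no other line reached 1 CPM. The fitted log2 difference was 7.63 (SE 1.29) and 6.62 (SE 1.27) without HuH28, with edgeR adjusted p of 0.0836 and 0.184. The mean of the ampullary lines was 0 CPM, so the size of this difference is partly set by the floor. It was 6.45 (edgeR adjusted p = 0.0414) when the 15 lines were pooled as 1 group. With repository as a covariate it was 7.61 (edgeR adjusted p = 0.332). By limma-voom, another test across all genes, the adjusted p was 0.000365. FAT3 had the widest gap between the groups, 1.97 on the scale log2(CPM + 0.5), and OZ had 0 counts of it.

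PCED1A, a gene named for its PC-esterase domain, was at 155, 136, 118 and 172 CPM in HuCCT1, HuH28, SNU-1079 and TKKK, and ranged from 19.7 to 113 CPM elsewhere with a median of 67.3. ARID5A, an RNA-binding protein known for stabilizing inflammatory messenger RNAs, was at 15.7, 13.9, 20.1 and 19.6 CPM, against 1.84 to 13.3 CPM with a median of 6.16. These 2 genes were separated by a margin of 0.06 log2 units each, which is narrow beside the spread within each group. Their log2 differences were 1.17 (SE 0.32, edgeR adjusted p = 0.179) and 1.28 (SE 0.45, edgeR adjusted p = 0.328). OZ had 153 CPM of PCED1A, within the intrahepatic range, and 5.08 CPM of ARID5A, below it.

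**Figure D1:**
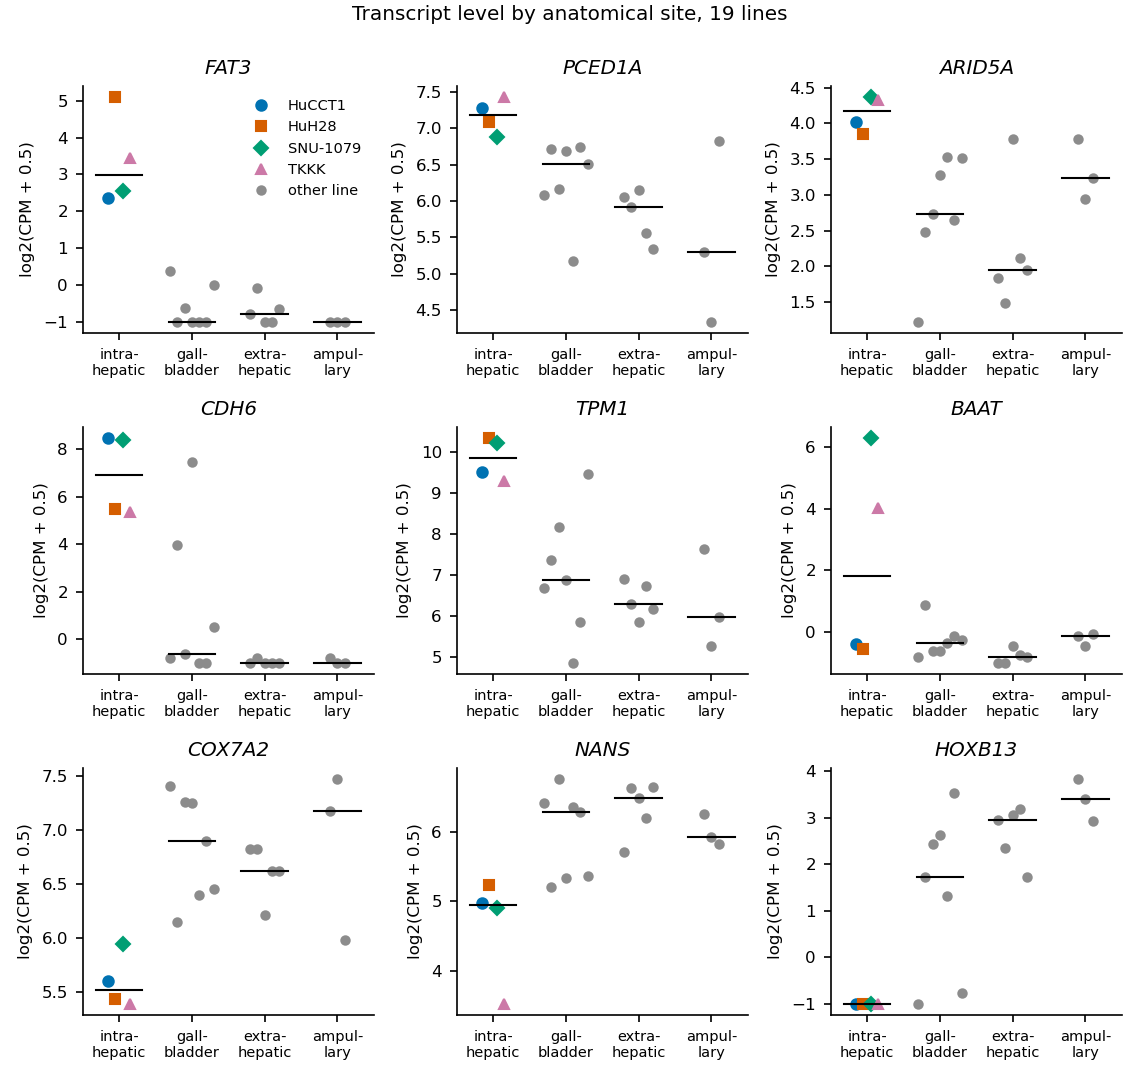
Level of 9 genes in 19 lines, on log2(CPM + 0.5), by anatomical site. Each point is 1 line, coloured symbols are the 4 intrahepatic lines and black bars are medians. FAT3 is the gene with the widest gap, BAAT is high in SNU-1079 and TKKK alone, and HOXB13 is at 0 counts in all 4 intrahepatic lines.

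When 1 of the 15 other lines was allowed to overlap, 21 genes (0.126%) were higher in all 4 lines. CDH6, a cadherin of kidney and of some epithelial cancers, was at 350 CPM in HuCCT1, 43.5 in HuH28, 328 in SNU-1079 and 39.7 in TKKK. It was at 0 counts in 8 of the 15 other lines and above 1 CPM in 2, OCUG-1 with 176 CPM and Mz-ChA-2 with 15.1 CPM. OZ, which carries the intrahepatic label beside another, had 90.9 CPM. The log2 difference was 9.32 (SE 1.83), with an adjusted p of 0.103 by edgeR and 0.00667 by limma-voom. It was 3.87 (edgeR adjusted p = 0.712) when the 15 lines were pooled as 1 group and 6.25 (edgeR adjusted p = 0.279) with OZ taken as extrahepatic. The mean of the gallbladder lines was 27.5 ± 65.8 CPM (SD, n = 7) and that of the extrahepatic lines 0.0149 ± 0.0333 CPM (SD, n = 5). SLC35F3, a putative thiamine transporter, was at 19.6, 6.72, 47 and 15.3 CPM, against 0 counts in 8 other lines and at most 11.9 CPM, in NOZ. Its adjusted p was 0.176 by edgeR and 0.00566 by limma-voom. FAT3, CDH6 and SLC35F3 were the 3 genes called by limma-voom (0.0181%).

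TPM1, the tropomyosin that stabilizes actin filaments, was at 730 CPM in HuCCT1, 1300 in HuH28, 1200 in SNU-1079 and 624 in TKKK. The other lines ranged from 28.3 to 708 CPM with a median of 102, and TGBC2TKB alone exceeded the lowest intrahepatic line, since the next had 290 CPM. The log2 difference was 2.99 (SE 0.55) and 2.79 (SE 0.59) without HuH28, with edgeR adjusted p of 0.0836 and 0.257. TPM1 thus stayed near its value when HuH28 was removed, unlike MYL9 and TAGLN, described below. OZ had 30.8 CPM, near the low end of the other lines.

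A further 3 genes of this kind were SYP, INPPL1 and MOSPD1. SYP, the synaptic vesicle protein synaptophysin, was at 2.73, 7.5, 8.75 and 6.49 CPM, against a median of 1.54 and a highest value of 2.98 in the other lines. INPPL1, the lipid phosphatase SHIP2, was at 343, 269, 442 and 1070 CPM, against a median of 228 and a highest value of 359. MOSPD1 was at 66.8, 80.6, 88.6 and 44 CPM, against a median of 23.2 and a highest value of 48.4. The last 2 were chosen after their values were seen. None passed edgeR's adjusted threshold (adjusted p = 0.164, 0.153 and 0.244).

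In the opposite direction 1 gene (0.00602%) was lower in all 4 lines than in every other line. This was COX7A2, a nuclear-encoded subunit of cytochrome c oxidase, the last enzyme of the respiratory chain. It was at 47.9 CPM in HuCCT1, 42.8 in HuH28, 61 in SNU-1079 and 41.4 in TKKK, and from 62.8 to 177 CPM elsewhere with a median of 113. The log2 difference was −1.25 (SE 0.29, edgeR adjusted p = 0.148), and the margin between the groups was 0.04 log2 units. OZ lay with the intrahepatic lines at 46.1 CPM. Of 18 fitted subunits and assembly factors of the same enzyme, 0 were higher and 2 lower at an unadjusted p under 0.05, COX7A2 and COX5A, with a list median of −0.28 against 0.04 over all genes. Of all genes, 7.51% were higher and 1.96% lower. Without HuH28, 1 of the 18 was lower (1.37% of all genes) and the median was −0.11. COX5A was at 83.1, 70.4, 64.2 and 87.2 CPM against a median of 132, within the range of the other lines.

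With 1 other line allowed to overlap, 8 genes (0.0481%) were lower in all 4. NANS, the synthase that makes sialic acid for cell surface glycans, was at 31.1, 37, 29.5 and 11.1 CPM, against 36.5 to 107 CPM with a median of 75.8. The log2 difference was −1.38 (SE 0.35) and −1.58 (SE 0.40) without HuH28, with edgeR adjusted p of 0.164 and 0.347. Of 14 fitted genes of sialic acid metabolism, 1, NANS itself, was lower at an unadjusted p under 0.05 (1.96% of all genes), and the list median was 0.12. EMC9, a subunit of the endoplasmic reticulum complex that inserts membrane proteins, was at 7.51, 7.33, 7.05 and 7.58 CPM, a narrow span. It was at 7.13 to 28.3 CPM elsewhere with a median of 18.9, and only G415 fell within the intrahepatic range. CCNC, cyclin C, was at 49.8, 29.1, 39.8 and 39.4 CPM against a median of 62.8, and PPIL4 at 19.7, 27.3, 26.9 and 22.8 CPM against a median of 41.2. EMC9, CCNC and PPIL4 were chosen after their values were seen.

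HOXB13, a homeobox factor of the hindmost body axis, had 0 counts in all 4 intrahepatic lines. Elsewhere it ran from 0 to 13.7 CPM with a median of 5.67, and 13 of 15 lines were at 1 CPM or more. Taking 3 counts per library as the limit that a count of 0 allows, which is at most 0.262 CPM in these 4 lines, it was at least 25.9-fold lower than the mean of the other 3 sites, 6.77 CPM. G415 also had 0 counts, so the groups touch, and OZ had 1.75 CPM. The edgeR adjusted p was 0.118. Of 32 fitted HOX genes, 0 were higher and 1, HOXB13, was lower at an unadjusted p under 0.05 (1.96% of all genes), while 6 had a positive difference. The list median was −0.84, and −0.72 with the 5 genes that have 0 counts on 1 side set to their limit. TKKK was the exception among the 4 lines, with the highest level of all 20 lines in 7 HOX genes. Over all 16615 genes fitted, TKKK was highest in 1366.

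BAAT, the enzyme that joins bile acids to glycine or taurine, was the gene that passed edgeR's threshold once HuH28 was left out. It was at 0.256 CPM in HuCCT1, 0.174 in HuH28, 77.2 in SNU-1079 and 15.6 in TKKK. The other 15 lines ran from 0 to 1.33 CPM with a median of 0.227, and OZ had 1.17 CPM. The level was thus carried by 2 of the 4 lines, while HuCCT1 and HuH28 sat near the median of the other sites. The log2 difference without HuH28 was 6.99 (SE 1.00, edgeR adjusted p = 0.0414). The call held in 4 of 17 fits that left out another line, with adjusted p from 0.00371 to 0.579, and in 6 of 11 other settings. BAAT was not fitted without Mz-ChA-2 or with a filter of at least 20 counts in 4 lines. Those fits are not in these counts, so the call also depends on the filter. Without SNU-1079 the log2 difference was 5.03 and the adjusted p 0.165. The limma-voom test gave an adjusted p of 0.355.

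The region before the start of BAAT is printed beside that of NANS and of EMC9, since BAAT differs between the 4 lines while NANS and EMC9 are low in all 4. Each run holds the 250 bases before the RefSeq start site on GRCh38.p14, 5′ to 3′ on the strand of the gene, with every CG dinucleotide in capitals. The BAAT window, at the more upstream of its 2 starts, lies at chr9:101383874-101384123 on the minus strand, NANS at chr9:98056482-98056731 on the plus strand and EMC9 at chr14:24141592-24141841 on the minus strand.
BAAT: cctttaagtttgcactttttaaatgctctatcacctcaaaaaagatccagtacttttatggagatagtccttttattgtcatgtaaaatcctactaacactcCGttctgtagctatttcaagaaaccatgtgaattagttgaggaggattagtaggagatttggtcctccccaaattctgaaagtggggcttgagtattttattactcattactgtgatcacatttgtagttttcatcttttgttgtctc
NANS: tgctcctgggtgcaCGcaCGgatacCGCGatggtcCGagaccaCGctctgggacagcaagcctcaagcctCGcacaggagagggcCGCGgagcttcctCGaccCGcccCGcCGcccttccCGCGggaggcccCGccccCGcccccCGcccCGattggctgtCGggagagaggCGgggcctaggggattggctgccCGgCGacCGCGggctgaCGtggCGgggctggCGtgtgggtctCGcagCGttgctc
EMC9: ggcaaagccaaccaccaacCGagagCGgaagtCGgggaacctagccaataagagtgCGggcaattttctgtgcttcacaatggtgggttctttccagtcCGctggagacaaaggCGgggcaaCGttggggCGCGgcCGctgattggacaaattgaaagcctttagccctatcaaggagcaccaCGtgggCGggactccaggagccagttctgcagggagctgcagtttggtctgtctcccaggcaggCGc
The BAAT window holds 1 CG, and 14.7% of 35116 windows of this length in the RefSeq table hold at most that many. The NANS window holds 30, which 12.4% of windows reach, and the EMC9 window 13, which 46.6% reach. The median over all windows is 11. Methylation was not measured in these data. Of 9 genes looked up, 7 had an entry and 4 had a window clear of annotated exons.

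The other genes of bile acid handling were mixed. Of 18 fitted, 3 were higher (BAAT, CYP7B1 and ABCC4) and 1 lower (ABCB11) at an unadjusted p under 0.05, against 7.51% and 1.96% of all genes. Without HuH28, 2 were higher and 1 lower, against 4.3% and 1.37%. The list median was 0.5 and 0.69 without HuH28. CYP7B1, a hydroxylase of oxysterols, was at 0.342, 0.174, 9.09 and 0.0842 CPM, so SNU-1079 alone carried it. ABCC4, an export pump on the basal side of hepatocytes, was at 31.3, 89.7, 233 and 16.3 CPM against a median of 30.3. ABCB11, the bile salt export pump of hepatocytes, was at 0.085 CPM in SNU-1079 and 0 counts in the other 3 lines, against at most 1.57 CPM elsewhere. SNU-1079 had the highest level of all 20 lines in 4 of the 18 genes, against 760 of all 16615 genes fitted.

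Genes of bile duct cells were low in HuH28. The summed level of the cholangiocyte list was 6450, 1030, 4490 and 7510 CPM in HuCCT1, HuH28, SNU-1079 and TKKK, against 1060 to 10100 CPM in the other lines with a median of 5530. Of 22 fitted members, 2 were higher and 1 lower at an unadjusted p under 0.05 (7.51% and 1.96% of all genes). Without HuH28, 4 were higher and 0 lower (4.3% and 1.37% of all genes). The median was 0.32 with HuH28 and 0.48 without it. PKHD1, the ciliary protein mutated in polycystic kidney and liver disease, was at 12.2 CPM in HuCCT1, 0 in HuH28, 87.6 in SNU-1079 and 147 in TKKK. Other lines reached 16.8 CPM with a median of 0.198. Its log2 difference without HuH28 was 5.01 (SE 1.34), with an adjusted p of 0.386 by edgeR and 0.0176 by limma-voom. ANXA4, a calcium-dependent membrane binding protein, was at 91.9, 111, 131 and 2490 CPM against a median of 153. Its log2 difference of 1.51 (SE 0.63) rested on TKKK and was −1.18 without that line. TFF3, a mucosal peptide of goblet cells, had 0 counts in all 4 lines and in 8 of the others.

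Hepatocyte transcripts differed among the 4 lines. Of 19 fitted, 3 were higher and 1 lower at an unadjusted p under 0.05, with HuH28 (7.51% and 1.96% of all genes) and without it (4.3% and 1.37%). The list median was −0.21 and 0.05 without HuH28. The summed level of the list was 483, 138, 140 and 74.9 CPM in HuCCT1, HuH28, SNU-1079 and TKKK. Elsewhere it ran from 20.1 to 8580 CPM with a median of 154. HPX, the heme carrier hemopexin, was at 0.427, 0.436, 7.73 and 4.8 CPM in HuCCT1, HuH28, SNU-1079 and TKKK. SERPINA1, an abundant liver protease inhibitor, was at 452 CPM in HuCCT1 but at 2.88, 50.1 and 0.59 CPM in HuH28, SNU-1079 and TKKK. AFP, the fetal liver protein, was at 4.89 CPM in TKKK and under 1 CPM in the other 3. Among the 4 lines, each of these 3 genes was thus highest in its own subset. The highest levels elsewhere were all in Mz-ChA-2, with 3.67 CPM of HPX, 4650 of SERPINA1 and 25.1 of AFP.

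Markers proposed for small-duct and large-duct tumours were split among the lines. CDH2 was at 122 CPM in HuCCT1, 1320 in HuH28, 300 in SNU-1079 and 0 in TKKK, against a median of 0.423 and a highest value of 199 elsewhere. NCAM1 was at 465 CPM in HuH28 and at 0, 0.425 and 0 CPM in HuCCT1, SNU-1079 and TKKK. Elsewhere its median was 0.078 CPM and its highest value 125 CPM, in TGBC2TKB. The secreted phosphoprotein SPP1 reached 887 CPM in SNU-1079 and 510 CPM in TKKK but stayed under 1 CPM in HuCCT1 and HuH28. Its median elsewhere was 0.671 CPM, but lines of other sites were higher, with 5290 CPM in SNU-308, 4800 in OCUG-1 and 1350 in TFK-1. S100P, a large-duct marker, was at 75.4 CPM in TKKK and under 1 CPM in the other 3, against a median of 50.1 in the other lines. The mucin MUC6 was at 67, 0.349, 3.06 and 2.11 CPM in HuCCT1, HuH28, SNU-1079 and TKKK, against at most 14.8 CPM elsewhere. Of 5 fitted large-duct genes, 1 was higher and 0 lower at an unadjusted p under 0.05 (7.51% and 1.96% of all genes). The list median was −2.77. Their summed levels were 210, 0.872, 3.57 and 304 CPM in the same order, against a median of 307. None of the 4 lines carried all 3 of CDH2, NCAM1 and SPP1.

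Among lists of more than 3 fitted genes, the largest medians belonged to matrix and contractile genes. Of 32 fitted matrix genes, 22 were higher and 0 lower at an unadjusted p under 0.05 (7.51% and 1.96% of all genes), with a median log2 difference of 4.13. HuH28 had the highest level of the 20 lines in 20 of the 32, against 1376 of all 16615 genes fitted. Without HuH28, 6 of 30 were higher (4.3% of all genes) and the median was 1.04. COL3A1, a fibrillar collagen of connective tissue, was at 0.0854, 599, 0.425 and 0 CPM in HuCCT1, HuH28, SNU-1079 and TKKK. COL1A1, the main collagen of bone and skin, was at 89.3, 8120, 4230 and 2.19 CPM against a median of 78.9, so SNU-1079 carried it as well. Fibronectin, FN1, was at 2160, 14000, 391 and 4.3 CPM against a median of 95.9 and a highest value of 13700 in OCUG-1. TKKK was low in all 3.

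HuH28 also had the highest level of the 20 lines in 9 of 10 fitted contractile genes, against 1376 of all 16615. Of the 10, 8 were higher at an unadjusted p under 0.05 (7.51% of all genes) with a median of 3.84. Without HuH28, 4 were higher (4.3% of all genes) and the median was 1.12. MYL9, the regulatory light chain of smooth muscle myosin, was at 6.32, 2290, 39.9 and 5.22 CPM, and its log2 difference went from 5.14 to 0.01 without HuH28. TAGLN, the smooth muscle protein transgelin, was at 11.1, 1990, 7.56 and 21.9 CPM, and its difference went from 4.74 to −0.51. CALD1, which binds actin and tropomyosin, was at 151, 2790, 252 and 625 CPM against a median of 70.2 and a highest value of 643 in Mz-ChA-2. Its log2 difference was 4.74 (SE 0.87) and 3.24 (SE 0.82) without HuH28, with edgeR adjusted p of 0.0836 and 0.347. With the 15 lines pooled as 1 group it was 2.74 (edgeR adjusted p = 0.705). The site means of CALD1 were far apart, at 2.11 ± 3.45 CPM (SD, n = 5) in extrahepatic, 81.4 ± 85.1 CPM (SD, n = 3) in ampullary and 266 ± 216 CPM (SD, n = 7) in gallbladder lines. CNN1, calponin, was at 34.5 CPM in HuH28 and 9.94 in SNU-1079 but at 0 counts in HuCCT1 and TKKK. TPM1 and CALD1, partners on the actin filament, were thus above the median of the other lines in all 4.

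Fibroblast and stellate cell markers had their highest level of the 20 lines in HuH28 in 6 of 12 fitted genes. Over all 16615 genes fitted, HuH28 was highest in 1376. Of the 12, 6 were higher at an unadjusted p under 0.05 (7.51% of all genes) with a median of 3.03. Without HuH28, 0 of the 8 that were fitted were higher (4.3% of all genes), with a median of 0.01. The summed level was 1700 CPM in HuH28 and 13.8, 62.9 and 12.9 CPM in HuCCT1, SNU-1079 and TKKK, against 7.98 to 518 CPM in the other lines. THY1, a surface glycoprotein of fibroblasts, was at 1130 CPM, FAP, a surface protease of activated fibroblasts, at 131 CPM, and PDGFRA, the receptor of platelet-derived growth factor, at 136 CPM in HuH28. All 3 were at 1.35 CPM or less in the other intrahepatic lines, but THY1 reached 395 CPM in TGBC2TKB and PDGFRA 79.9 CPM in Mz-ChA-2. PDGFRB, the second receptor of that growth factor, was at 5.15 CPM in HuH28, 6.97 in SNU-1079 and 8.19 in Mz-ChA-2. LRAT, a defining enzyme of stellate cells, had 0 counts in HuH28 and 14 CPM in SNU-1079. Whether HuH28 expresses these genes itself or holds other cells was not tested. Of 12 markers of endothelial cells, 5 were fitted, and these had summed levels of 1.4 to 2.13 CPM in the 4 lines. KDR and TEK, receptors of endothelial cells, were not fitted and are not in these sums. Their highest levels over the 20 lines were 56.3 and 85.1 CPM.

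**Figure D2:**
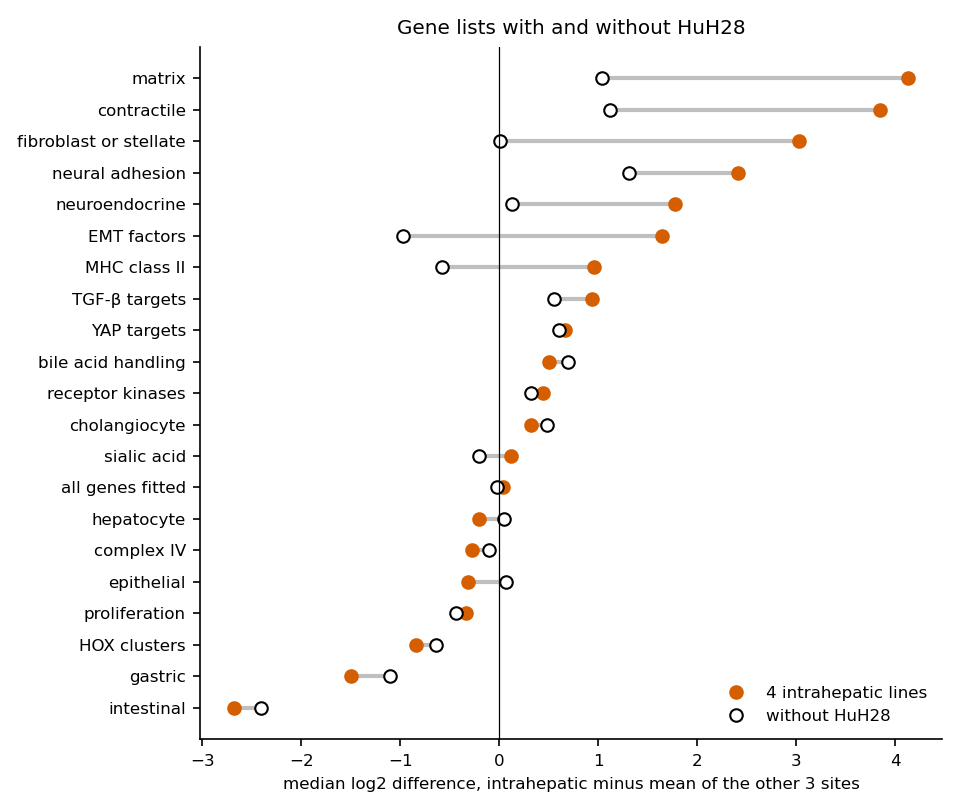
Median log2 difference between intrahepatic lines and the mean of the other 3 sites for 20 gene lists and for all genes fitted. Filled points use 4 lines and open points 3, without HuH28. The matrix list goes from 4.13 to 1.04 and the fibroblast or stellate list from 3.03 to 0.01, and the neural adhesion list from 2.41 to 1.31, but fewer genes of these lists were fitted without HuH28.

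Of 26 fitted neural adhesion genes, 12 were higher and 0 lower at an unadjusted p under 0.05 (7.51% and 1.96% of all genes), with a median of 2.41. Without HuH28, 3 of 22 were higher and 1 lower (4.3% and 1.37% of all genes), with a median of 1.31 over those 22. All 4 lines lay above the median of the other lines in 6 of 26 (23.1%), against 8.61% of all genes. FAT3 and CDH6, described above, belong to this list, which was written with earlier results of these data known. CDH11, a mesenchymal cadherin, was at 828 CPM in HuH28 and at 0.512, 0 and 0.59 CPM in the other 3. PCDH17 was at 6.28 CPM in HuH28 and 10.2 in SNU-1079, with 0 counts in HuCCT1 and TKKK. FAT3 and CDH6 were thus present in every intrahepatic line, while CDH11 and PCDH17 were each missing from at least 1.

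TGF-β genes had a summed level of 6430, 5420, 7910 and 930 CPM in HuCCT1, HuH28, SNU-1079 and TKKK, against a median of 2160 CPM in the other lines. Of 20 fitted, 4 were higher and 0 lower at an unadjusted p under 0.05 (7.51% and 1.96% of all genes), with a median of 0.94. Without HuH28, 2 were higher and 0 lower (4.3% and 1.37% of all genes), with a median of 0.55. INHBA, a subunit of activin, was at 50.7 CPM in HuCCT1, 115 in HuH28, 156 in SNU-1079 and 0.253 in TKKK, against a median of 0.0756 and a highest value of 49.2 elsewhere. Its edgeR log2 difference was 6.38 (SE 1.77, adjusted p = 0.179), and 4.28 (adjusted p = 0.636) with the 15 lines pooled as 1 group. LTBP2, a latent TGF-β binding protein, was at 168, 60.3, 112 and 19.3 CPM against a median of 25. In both genes TKKK was the lowest of the 4 lines.

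Of 27 fitted epithelial genes, 0 were higher or lower at an unadjusted p under 0.05 (9.47% of all genes), and the median was −0.32 with HuH28 and 0.07 without it. ELF3, an epithelial transcription factor, was at 185, 0.349, 306 and 30.2 CPM against a median of 332. Intestinal genes had a median of −2.68, with 1 higher and 3 lower of 14 at an unadjusted p under 0.05 (7.51% and 1.96% of all genes), and 1 higher and 1 lower without HuH28 (4.3% and 1.37%). CEACAM5, the carcinoembryonic antigen, was at 0.683 and 0.758 CPM in HuCCT1 and TKKK with 0 counts in HuH28 and SNU-1079, against a median of 6.35 and a highest value of 1830 in SNU-245. CDH17, the intestinal cadherin, ran the other way in 1 line, with 419 CPM in TKKK against 0, 0.0872 and 6.29 CPM in HuCCT1, HuH28 and SNU-1079. Gastric genes had a median of −1.5, yet CLDN18, a claudin of stomach and lung, was at 0.256, 2.27, 0.68 and 12.4 CPM against at most 1.1 CPM elsewhere. The CLDN18 log2 difference was 3.86 (SE 0.73, edgeR adjusted p = 0.0836), and 2.55 by limma-voom (adjusted p = 0.727).

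Receptor tyrosine kinases were higher in 5 and lower in 0 of 22 fitted genes at an unadjusted p under 0.05 (7.51% and 1.96% of all genes), with a median of 0.44. Without HuH28, 3 of 21 were higher and 0 lower (4.3% and 1.37% of all genes), with a median of 0.32. EGFR was at 263 CPM in HuCCT1, 54.5 in HuH28, 388 in SNU-1079 and 263 in TKKK, against a median of 74.6. The other 3 lines exceeded every other line but G415, which had 431 CPM and is the highest of all. The log2 difference without HuH28 was 1.67 (SE 0.58, edgeR adjusted p = 0.636). ERBB2 was at 203, 102, 237 and 2240 CPM against a median of 230, so TKKK alone stood out. FGFR2, whose gene fusions are a feature of intrahepatic tumours, was at 23.1, 87.6, 8.24 and 7.25 CPM against a median of 17.3, and HuH28 exceeded the highest other line, SNU-245 with 70.3 CPM. ROS1 was at 178 CPM in HuH28 and 9.94 in SNU-1079, against a median of 0.162. These counts do not show fusions.

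Genes often mutated in bile duct cancer had a list median near 0. Of 26 fitted, 0 were higher or lower at an unadjusted p under 0.05 (9.47% of all genes), with a median of 0.02. IDH1, often mutated in intrahepatic tumours, was at 72.7, 83.4, 124 and 783 CPM against a median of 278, and TKKK lay just above the highest other line, TFK-1 with 768 CPM. BAP1, a deubiquitinase lost in some intrahepatic tumours, was at 87.2, 122, 81.2 and 47.3 CPM against a median of 71.6. ARID1A, a chromatin remodelling subunit, was at 138, 85.6, 117 and 121 CPM against 116. CDKN2B, an inhibitor of cyclin-dependent kinases, had 0 counts in SNU-1079 and 283, 116 and 152 CPM in HuCCT1, HuH28 and TKKK. Mutations were not analysed here.

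Of 22 fitted proliferation genes, 0 were higher and 2 lower at an unadjusted p under 0.05, with HuH28 (7.51% and 1.96% of all genes) and without it (4.3% and 1.37%). The median was −0.34 and −0.44 without HuH28, and 1 of the 22 had a positive difference with HuH28. MCM7, a subunit of the replicative helicase, was at 266, 171, 242 and 196 CPM against 193 to 1910 CPM with a median of 297. CCNB2, a mitotic cyclin, was at 52.8, 58.8, 55.3 and 25.8 CPM against a median of 95.7. The list score averages log2(CPM + 0.5) over the members after the 20-line mean of each gene is subtracted. It was −0.14 in HuCCT1, 0.06 in HuH28, 0.28 in SNU-1079 and −1.94 in TKKK. The other lines ran from −1.26 to 1.19, so TKKK was below all of them and the other 3 were near the middle. Growth rates were not analysed here.

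**Figure D3:**
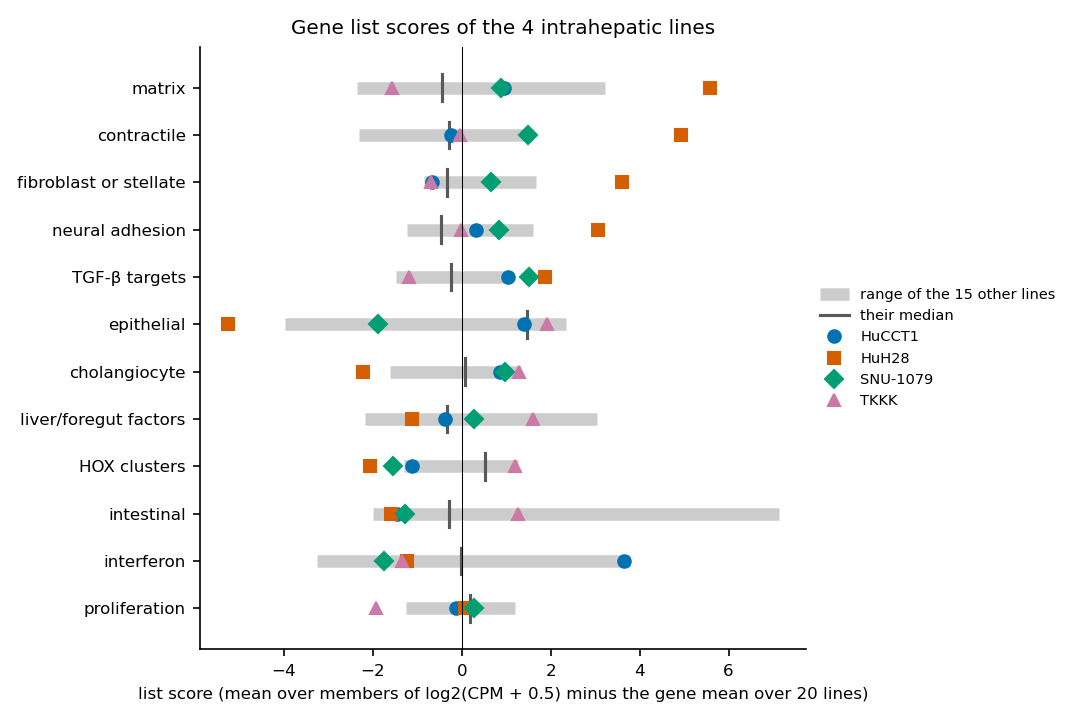
Score of 12 gene lists in the 4 intrahepatic lines, averaging log2(CPM + 0.5) over members after subtracting the 20-line mean of each gene. Grey bars are the range and dark ticks the median of the 15 other lines. HuH28 lies beyond the range for the matrix list (5.59) and the epithelial list (−5.26), TKKK lies below it for proliferation (−1.94), and HuCCT1 is near the top for interferon (3.65).

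The list scores show 4 different lines. HuCCT1 had an interferon score of 3.65 against −1.24, −1.74 and −1.35 in HuH28, SNU-1079 and TKKK, and against at most 3.79 in the other lines. CXCL10, an interferon-induced chemokine, was at 8.96 CPM in HuCCT1 and under 1 CPM in the other 3. HuH28 had a matrix score of 5.59 against at most 3.23 in the other lines and an epithelial score of −5.26 against at least −3.98. SNU-1079 had an epithelial score of −1.89 with a cholangiocyte score of 0.96. TKKK had an epithelial score of 1.92 and the highest HOX score of the 4, 1.19, against −1.13, −2.07 and −1.54 in HuCCT1, HuH28 and SNU-1079.

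The 5 leading genes of each line were fitted genes of at least 50 CPM with the widest gap to the next of 20 lines. Genes with counts in too few lines were not fitted, so a gene of 1 line alone can be missing. KIT and POSTN, with highest levels of 186 and 182 CPM over the 20 lines, were not fitted. The leading genes were different in kind. In HuCCT1 they were led by F2RL1, the protease-activated receptor PAR2, at 2500 CPM against 221 in NOZ, followed by CAMK2B at 105, C6orf15 at 73.8, SLC14A1, a urea transporter, at 135 and the receptor EPHB6 at 789 CPM. In HuH28 they were THBS2, a matricellular thrombospondin, at 2960 CPM against 10.6 in TGBC2TKB, COL3A1 at 599, the integrin ITGA4 at 239, COLEC12 at 808 and the sulfatase SULF1 at 232 CPM. In SNU-1079 they were TEX19, a germline gene, at 113 CPM against 1.36 in SNU-1196, the pore-forming claudin CLDN2 at 1610, DOCK2, a regulator of Rac in blood cells, at 76.5, ADGRF5 at 184 and the calcium channel RYR2 at 53.7 CPM. In TKKK they were SULT1E1, which sulfates estrogens, at 257 CPM against 6.98 in HuH28, TMEM272 at 50, WIPF3 at 171, the fatty acid carrier FABP3 at 205 and UGT2A3, a glucuronosyltransferase, at 62.8 CPM. The second-ranked lines included an intrahepatic line for 2 of these 20 genes, CLDN2 and SULT1E1.

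**Figure D4:**
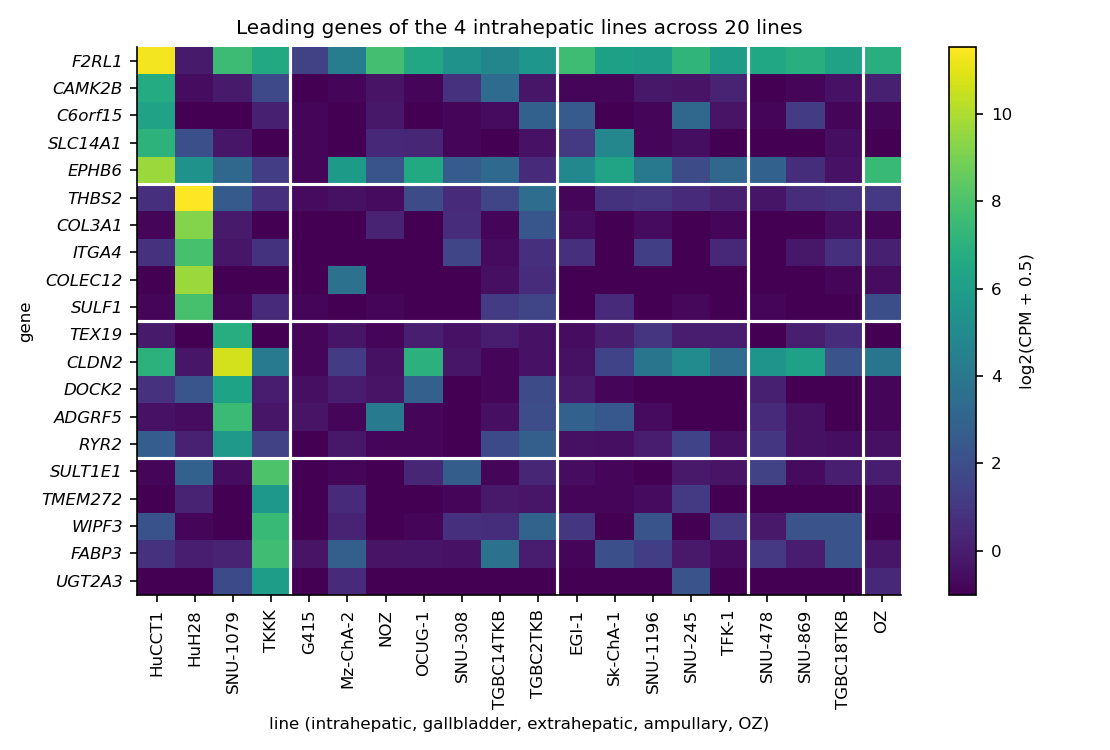
Level of the 5 leading genes of HuCCT1, HuH28, SNU-1079 and TKKK (rows, in that order) in 20 lines (columns), as log2(CPM + 0.5) in colour. White lines separate the lines' genes and the sites. Each block is brightest in 1 column, and F2RL1 is the gene of the set that most other lines also express.

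HuH28 held 916 fitted genes of at least 50 CPM whose level was the highest of the 20 lines, TKKK 780, SNU-1079 413 and HuCCT1 229. HuH28 was therefore not alone in standing apart. Leaving out each line in turn also gave different sets of shared genes. With HuCCT1 left out, 7 genes passed edgeR's adjusted threshold, all higher (BAAT, BIVM, CACNA2D3, CLDN18, COL5A2, RYR3 and THBS2), and 26 genes were higher and 21 lower without overlap (0.156% and 0.126%). With HuH28 left out, the counts were 1, 17 and 9 (0.102% and 0.0542%). With SNU-1079 left out they were 1 (COL5A2), 10 and 9 (0.0602% and 0.0542%). With TKKK left out they were 3 (COL5A2, SLC26A2 and THBS2), 21 and 7 (0.126% and 0.0421%). HuCCT1, not HuH28, was thus the line whose removal gave the most genes in each of the 3 counts.

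The 17 genes higher in HuCCT1, SNU-1079 and TKKK than in every other line, with HuH28 left out, (0.102%) include 1 that is not reported here. NALCN, the sodium leak channel of neurons, was at 21.5, 34.8 and 8.59 CPM in the 3 lines and 0.959 in HuH28, against a median of 0.147 and at most 5.96 CPM elsewhere. Its adjusted p without HuH28 was 0.39 by edgeR and 0.00173 by limma-voom. LAMA3, the alpha chain of the basement membrane laminin-332, was at 1150, 299 and 302 CPM, and at 69.5 in HuH28, against a median of 123 and at most 252. NUDCD3 was at 191, 206 and 263 CPM and at 75.1 in HuH28, against at most 158. NADSYN1, which completes the synthesis of NAD, was at 134, 248 and 171 CPM and at 45.8 in HuH28, against at most 127. HuH28 lay below the median of the other 15 lines in 7 of the other 16. These genes were chosen with HuH28 left out, and no share over all genes was taken for comparison.

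Among the 9 genes lower in these 3 lines than in every other line, 5 lie on chromosome 6, which holds 5.07% of the genes fitted. They are COX7A2, MTO1, TBPL1, RARS2 and TSPYL4. MTO1, which modifies mitochondrial transfer RNAs, was at 15.1, 16.2 and 13.9 CPM and at 20.9 in HuH28, against 19.8 to 50.4 CPM. RARS2, the mitochondrial arginine-tRNA ligase, was at 16.9, 17.8 and 18.5 CPM and at 31.7 in HuH28, against 19.4 to 49.4 CPM. TSPYL4 was at 17.8, 17.3 and 20.4 CPM and at 160 in HuH28, against 23.7 to 64.1 CPM. Over all 842 fitted genes of chromosome 6 the median log2 difference was −0.05 and −0.17 without HuH28, against 0.04 and −0.02 over all genes. The other 4 were BBS5, DDX27, NANS and SRP54. BBS5, a part of the ciliary BBSome, was at 0, 0.085 and 0.59 CPM and at 9.25 in HuH28, against 2.03 to 18.9 CPM.

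Likeness of lines was measured as Pearson's r of log2(CPM + 0.5) over the genes fitted, which are not independent of each other. The 6 pairs of intrahepatic lines had a mean r of 0.748, from 0.644 for HuH28 with TKKK to 0.799 for HuCCT1 with SNU-1079. The 60 pairs of an intrahepatic line with another line had a mean of 0.773. Pairs within gallbladder, extrahepatic and ampullary lines had means of 0.779, 0.827 and 0.856. Without HuH28 the intrahepatic mean was 0.775 over 3 pairs and the mean with other lines 0.791 over 45. The nearest line was never an intrahepatic one, being EGI-1 for HuCCT1 (0.882), TGBC2TKB for HuH28 (0.832) and SNU-1079 (0.809), and TGBC18TKB for TKKK (0.819). The pairs share lines and no test was made.

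**Figure D5:**
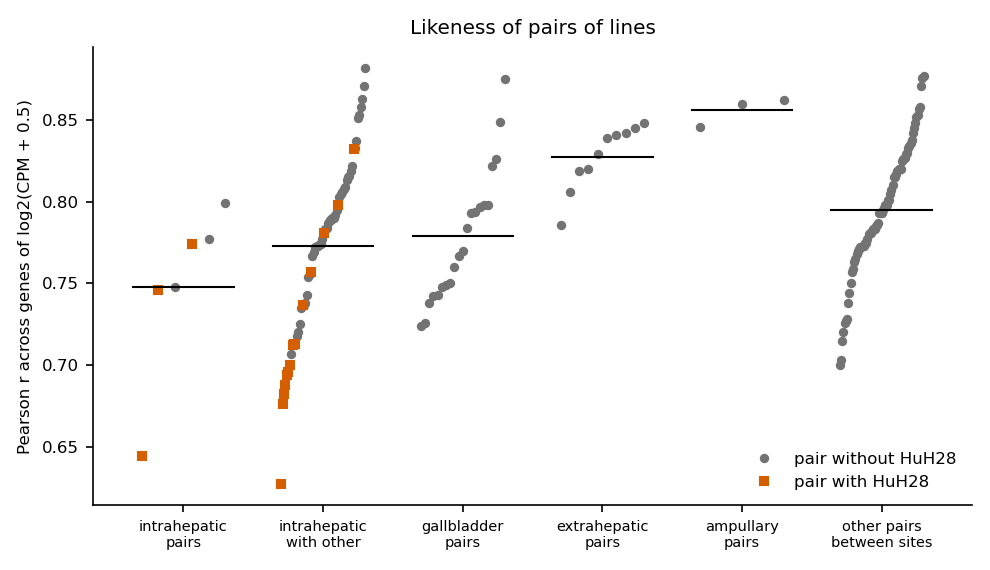
Pearson r across genes of log2(CPM + 0.5) for each pair of the 19 lines, by the sites of the pair. Each point is a pair, squares are pairs with HuH28 and bars are means. The 6 intrahepatic pairs have a mean of 0.748, below the 0.773 of their pairs with other sites.

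Other tools gave other counts. DESeq2 called 264 of 16213 genes (1.63%), 197 higher (1.22%) and 67 lower (0.413%), where edgeR called 0. Without HuH28 it called 92 (0.57%), 38 higher (0.235%) and 54 lower (0.334%), and 61 genes were in both sets with the same direction. Of the 264, 20 had 0 counts in all 4 intrahepatic lines, and 59 of the 197 higher genes were at 5 CPM or more in at most 1 intrahepatic line. FAT3 had an adjusted p of 2.29e-05 by DESeq2 and CDH6 of 2.67e-05, while COX7A2 had 0.00162, NANS 0.00654 and BAAT 5.3e-07. The 3 lower genes of smallest DESeq2 p, GSTT1, ASCL2 and CBLN1, had 0 counts in all 4 lines and also in 6, 5 and 7 of the other 15. FMN2, with an adjusted p of 8.42e-11 by DESeq2, reached 82.4 CPM in HuH28 against no more than 0.0854 CPM in the other 3. Without HuH28, limma-voom called 17 genes (0.103%), of which 10 are not reported here.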

How the data were processed

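Expression was measured by RNA sequencing in 20 lines, 1 library each, and 19 entered the comparison. The values the authors deposited are raw counts per RefSeq entry, without normalization. Per the submitters' processing notes, Trimmomatic, TopHat2 2.0.8, Picard 1.69 and featureCounts were used with the build GRCh37 (hg19). Strandedness in counting and the release of the annotation were not stated in these sources, so overlapping genes on opposite strands may share reads. Of 24222 entries, 23508 were named from a RefSeq gene table and 359 from GENCODE metadata. The remaining 355 held 0.484% of counts.

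Counts were fitted in R 4.3.3 with edgeR 4.0.16 (TMM, filterByExpr by site, robust quasi-likelihood F test, two-sided). The contrast was intrahepatic minus the unweighted mean of gallbladder, extrahepatic and ampullary lines, with and without HuH28. P values were adjusted by Benjamini-Hochberg over all genes fitted. DESeq2 1.42.0, limma-voom (limma 3.58.1), other scaling, filters and covariates, subsets and each line left out were alternatives. Recovery was tested on simulated counts, with 50 genes shifted at each size, none of low mean level. Groups were called separate in a gene when every intrahepatic line lay beyond every other line with at least 1 CPM in the higher group. Intervals and limits of a count of 0 (3 counts per library) cover counting error only.

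Genes were named by rule: up to 10 called genes per contrast and direction, or the 3 of smallest p where fewer than 3 passed, the genes without overlap between groups, genes called by limma-voom, 3 per direction by DESeq2, 2 to 4 of smallest p per list, and 5 leading genes per line. Genes outside the rule are marked in the text as chosen with their values known. The lines and the 31 gene lists were chosen with earlier results of these data known, so list counts are a description and no set test was made. Some entries that met the rule are not reported here. List medians leave out members that the fit without HuH28 dropped for low counts. Setting genes with 0 counts on 1 side to their limit moved the median of 1 of the 31 lists, HOX clusters.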

Additional observations from a re-analysis of the deposited data

Results flagged for a closer look

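Of 48 groups of 4 to 7 lines examined for a line far from the rest of its group, 8 had one, and chance alone flags about 1 in 20. Among the intrahepatic lines HuH28 had a total of 14.25 M counts, with the next line at 11.88 M, and 6.2% of its counts in the 10 highest genes, with the next at 3.77%. The other 6 lie in the comparison lines and are given on log2(CPM + 0.5). PCED1A was at 5.17 in the gallbladder line SNU-308, with the next at 6.08. ARID5A was at 3.78 in the extrahepatic line SNU-1196, with the next at 2.12. BAAT was at 0.87 in the gallbladder line Mz-ChA-2, with the next at −0.13. SLC35F3 was at 3.64 in the gallbladder line NOZ, with the next at −0.13. NALCN was at 0.82 in TFK-1 and CDH6 at −0.8 in Sk-ChA-1, in both cases with the other extrahepatic lines at −1, which is 0 counts.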

How the results depend on the processing

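The number of genes called by edgeR with all 4 lines was 0 with 9 of 12 alternatives and differed with DESeq2 (264), limma-voom (3) and a fit of 2 pooled groups (3: COL5A2, FAT3 and THBS2), and ran from 0 to 7 with 1 line left out, highest without HuCCT1. Without HuH28 the count of 1 became 92 with DESeq2, 17 with limma-voom, 2 with pooled groups and 3 with repository as a covariate, CDH6 among them. It became 0 with at least 20 counts in 4 lines, 0 with OZ taken as intrahepatic and 0 with OZ as extrahepatic, and ran from 0 to 4 with 1 line left out, highest without TKKK. The 3 genes higher in all 4 lines became 1 on the unscaled total, 1 with a gap of at least 1 log2 unit, 21 with 1 other line overlapping and 1 with OZ as intrahepatic, and ran from 3 to 26 with 1 line left out. The 1 lower gene became 3, 0 and 8 under the first 3 of these and 0 with OZ among the other lines, and ran from 1 to 21. Without HuH28 the 17 higher genes became 1 with the gap, 68 with 1 overlap, 11 with OZ among the others and 6 with OZ as intrahepatic, and ran from 17 to 173, while the 9 lower genes became 1, 31, 5 and 4 and ran from 9 to 83. The highest of these counts came without HuCCT1. With 1 line left out, the log2 difference of TAGLN ran from −0.51 without HuH28 to 5.15, and that of ANXA4 from −1.18 without TKKK to 1.88. Of 1308 log2 values over 43 genes, 1271 kept sign and side of the threshold. Of 248 list medians over 8 settings, 45 moved. The cause of these differences was not tested, beyond fewer lines leaving fewer values to exceed. No paired analysis was possible because each line stands for 1 tumour and was sequenced as 1 library. With 4 lines against 15, small shifts were rarely recovered, so a gene that was not called is not shown to be equal.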

Other observations

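OZ, the line labelled with both bile duct sites, was in neither group. Of the 16 reported genes higher in HuCCT1, SNU-1079 and TKKK than in all 15 other lines, OZ lay above all 15 in 5, and of the 9 lower genes it lay below all 15 in 4. COX7A2 (46.1 CPM), MTO1 (12.4 CPM) and RARS2 (12.1 CPM) were among the latter. OZ also had 90.9 CPM of CDH6 and 15.7 CPM of PKHD1, but 0 counts of FAT3 and SLC35F3. How often OZ lies beyond all 15 lines over all genes was not counted. The 5 and the 4 therefore do not place OZ with either group.

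By chromosome, the median log2 difference of fitted genes ran from −0.25 on chromosome 9 (652 genes) to 0.3 on chromosome 13 (290 genes). Chromosome 13 had 15.5% of its genes higher at an unadjusted p under 0.05, and chromosome X 13.4%, against 7.51% of all genes. Without HuH28 the medians of chromosomes 9 and 13 were −0.29 and 0.13. Copy number was not analysed here.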
